A study of Mus musculus with 4 samples.

Results

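Open chromatin at 8 genes that mark lymphatic endothelium was described in endothelial cells of mouse lung with and without Dnmt3a. The genes were Prox1, Lyve1, Pdpn, Ccl21a, Reln, Mmrn1, Sema3d and Fgl2. They were chosen from 21887 protein-coding genes by their known expression in lymphatic vessels, with earlier results of these data known. There were 4 libraries, of which 2 carried the Dnmt3a knockout (KO) and 2 were wild type (WT). All came from cells sorted by flow cytometry and labelled as lung endothelium, and were assayed by ATAC-seq, in which a transposase cuts and tags accessible DNA. The labels give the genotype only as ko or wt. The sources used here do not state the allele, any Cre driver, the strain, the age, the sex, the gate of the sort or whether animals were pooled. A gene's interval was its mm10 span with 10 kb on either side, and peaks of the 4 lists that overlapped by at least 1 bp were merged into regions. The 8 intervals held 33 of the 113056 merged regions, with 20 and 25 peaks for KO, against 28 and 30 for WT.

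Lymphatic endothelial cells arise mainly from embryonic veins, and the homeodomain factor PROX1 sets and keeps their identity. Mature lymphatic vessels carry surface molecules such as LYVE-1 and podoplanin and secrete the chemokine CCL21, which guides dendritic cells and T cells into them. In lung they drain fluid and immune cells along airways and large vessels and are much rarer than blood capillary endothelium. DNMT3A places new methyl groups on CpG dinucleotides.

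Each list gave only the position and width of its peaks, so read depth was unknown. A library could differ from another only in which peaks it listed and in how wide they were. In all, the KO lists held 85091 and 100879 peaks and the WT lists 101442 and 97627, and the narrowest peak was 201 bp in each. KO replicate 1 stood apart with the shortest list and the lowest shared base pairs with the others (Jaccard index 0.708 to 0.739, against 0.778 to 0.823 for the pairs without it). KO replicate 2 had peaks at 0 of 5 Y-linked genes, while KO replicate 1 had them at 4 and the WT libraries at 3 and 4. At Xist, KO replicate 2 had 3 peaks and each other library had 1. The KO libraries thus differed from each other at sex-linked genes more than the WT libraries did. A difference in sex was not tested. Nothing in the labels says that replicates came from separate mice, so p-values measure only the spread between these libraries. In a sorted population, a site open in few cells and a site weakly open in many cannot be told apart.

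The sequence before 6 gene starts is printed first to show the range among the genes, from a start under a peak in all 4 lists (upstream Prox1) through starts under a peak in 1 list (downstream Prox1, Sema3d and Mmrn1) to starts under none (Pdpn and Ccl21a). Each run holds the 250 bases upstream of a RefSeq start (GRCm38.p6, the mm10 assembly), written 5′ to 3′ on the gene's strand, with every CpG in capitals. The starts are the upstream and the downstream one of Prox1 (chr1:190170828-190171077 and chr1:190169516-190169765, minus strand), Sema3d (chr5:12382916-12383165, plus strand), Mmrn1 (chr6:60944067-60944316, plus strand), Pdpn (chr4:143299565-143299814, minus strand) and Ccl21a (chr4:42773992-42774241, minus strand). The RefSeq table matched 7 of the 8 genes, all but Lyve1.
Prox1 upstream start: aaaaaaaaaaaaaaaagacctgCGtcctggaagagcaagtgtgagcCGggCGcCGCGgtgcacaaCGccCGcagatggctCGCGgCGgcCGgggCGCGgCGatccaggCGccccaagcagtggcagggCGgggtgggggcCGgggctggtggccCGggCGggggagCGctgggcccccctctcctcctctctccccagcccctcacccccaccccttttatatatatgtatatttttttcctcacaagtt
Prox1 downstream start: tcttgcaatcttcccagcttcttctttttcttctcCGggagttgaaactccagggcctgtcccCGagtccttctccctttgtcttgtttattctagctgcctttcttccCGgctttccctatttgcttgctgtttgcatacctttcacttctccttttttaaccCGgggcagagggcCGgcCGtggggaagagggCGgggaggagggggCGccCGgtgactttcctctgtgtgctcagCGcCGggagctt
Sema3d start: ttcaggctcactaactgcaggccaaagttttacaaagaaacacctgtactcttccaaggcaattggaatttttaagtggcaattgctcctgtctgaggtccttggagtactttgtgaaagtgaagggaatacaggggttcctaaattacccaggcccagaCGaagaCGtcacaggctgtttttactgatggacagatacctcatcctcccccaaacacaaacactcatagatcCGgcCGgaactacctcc
Mmrn1 start: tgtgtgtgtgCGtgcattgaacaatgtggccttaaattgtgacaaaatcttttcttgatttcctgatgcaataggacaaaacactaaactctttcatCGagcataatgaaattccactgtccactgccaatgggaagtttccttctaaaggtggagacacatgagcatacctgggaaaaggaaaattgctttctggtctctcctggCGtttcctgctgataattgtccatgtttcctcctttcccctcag
Pdpn start: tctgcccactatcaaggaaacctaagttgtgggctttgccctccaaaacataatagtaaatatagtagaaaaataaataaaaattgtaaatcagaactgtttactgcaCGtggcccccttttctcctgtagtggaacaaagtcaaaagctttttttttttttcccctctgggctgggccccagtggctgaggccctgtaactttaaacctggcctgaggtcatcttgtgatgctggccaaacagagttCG
Ccl21a start: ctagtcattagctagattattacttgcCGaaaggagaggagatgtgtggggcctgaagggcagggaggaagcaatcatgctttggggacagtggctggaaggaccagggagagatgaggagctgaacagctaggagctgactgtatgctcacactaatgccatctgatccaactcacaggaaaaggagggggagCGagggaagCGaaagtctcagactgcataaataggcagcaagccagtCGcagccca

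CpG number set these starts far apart. In the 300 bp window from 250 bases before a start to 50 after it, Reln had 47 CpGs and the upstream start of Prox1 had 25. The downstream start of Prox1 had 14, Fgl2 12, Sema3d 8, Pdpn 7, Ccl21a 5 and Mmrn1 3, beside a median of 13 over 21263 windows of protein-coding genes. The Reln, upstream Prox1 and Fgl2 starts lay under a peak in all 4 lists, and the Pdpn and Ccl21a starts lay under none. The downstream Prox1 start and the Mmrn1 start lay under a peak in WT replicate 1 alone, and the listed Sema3d start in WT replicate 2 alone, with the other 3 Sema3d peaks beginning just past it. Over all windows the share under a peak in all 4 lists was 6.48% with 0 to 4 CpGs, 29.9% with 5 to 9, 75.8% with 10 to 19, 90.7% with 20 to 39 and 83.5% with 40 to 67. The Pdpn and Ccl21a starts thus fell in a class in which 61.8% of windows had no peak in any list. The share of 5 to 9 CpG starts under a peak in each list was 32.3% and 34.6% for KO, against 34.6% and 34.0% for WT.

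**Figure D1:**
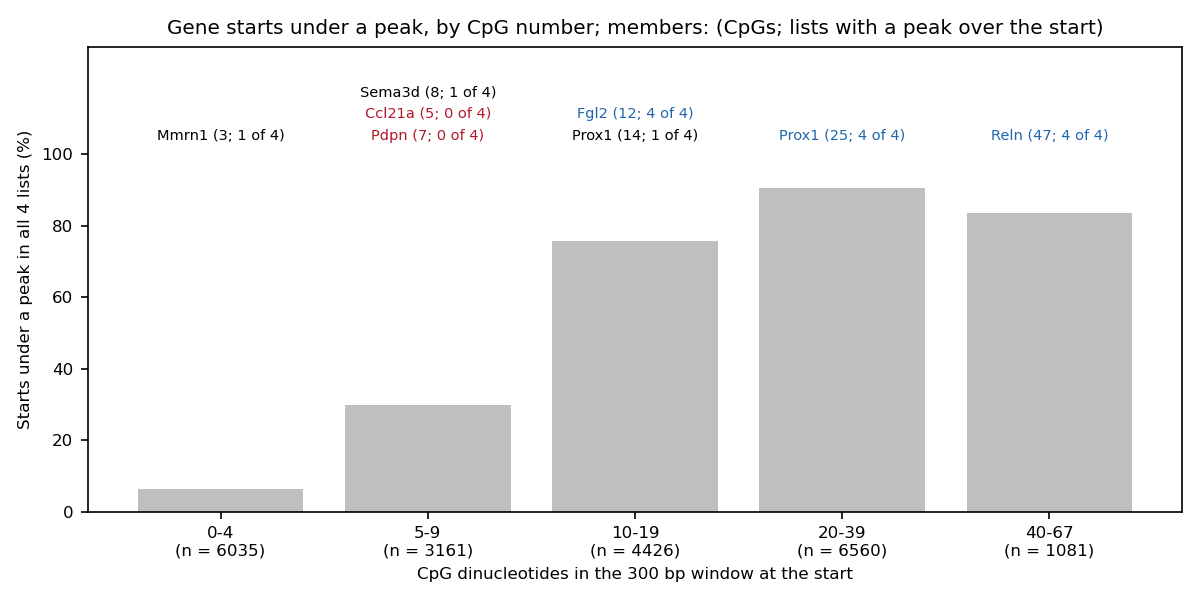
Bars give the share of RefSeq gene starts that lie under a peak in all 4 lists (vertical axis, percent) by the number of CpG dinucleotides in the 300 bp window at the start (horizontal axis). The 8 member starts are written above their class with their CpG number and the number of lists with a peak over the start (blue for all 4, red for none, black for 1), and the 2 starts with no peak, Pdpn and Ccl21a, have 7 and 5 CpGs.

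Short motifs were searched in the same windows on both strands. The ETS core CCGGAA was found in the Reln and Sema3d windows and in 18.7% of all windows. The COUP-TF element AGGTCA was found in the Pdpn window (14.7% of all), ACAATG, a SOX-type sequence, in the Fgl2 and Mmrn1 windows (11.0% of all), and the AP-1 sequence TGANTCA in the Fgl2 window (6.99% of all). The GATA sequence AGATAA was in 0 of the 8 member windows and in 9.65% of all. A match is a description of letters and not of binding.

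Prox1, the master transcription factor of lymphatic identity (gene identifier 19130, chromosome 1, 190118035 to 190170827), had 5 regions. Its upstream start, in a region that also overlaps the span of the gene Prox1os, carried a peak of 772 and 748 bp in the KO lists, against 778 and 809 bp in the WT lists. Both KO peaks were narrower than both WT peaks, KO replicate 1 by only a few bp from WT replicate 1, and all 4 were among the wider peaks of their list, at width percentiles of 80.3 to 87.7. Around its downstream start the picture differed by library: a peak of 667 bp was listed in KO replicate 2 and none in KO replicate 1, against 563 and 668 bp in the WT lists. Only the WT replicate 1 peak reached over that start at 190169515, while those of KO replicate 2 and WT replicate 2 ended at 190169509 and 190169493. Of the 8 member regions missing from 1 list, this was the widest, and KO replicate 2 did not share the absence. Another site, 45.3 kb inside the gene at 190124924 to 190125547, measured 411 and 572 bp in KO and 609 and 565 bp in WT, so the genotypes overlapped there. The other regions were a 201 bp peak at 190127361 to 190127599, listed in every library but WT replicate 1, and a 201 bp peak at 190155874 to 190156074, listed in WT replicate 1 alone.

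Lyve1 encodes a hyaluronan receptor of lymphatic vessels that some macrophages also carry (gene identifier 114332, chromosome 7, 110850607 to 110862953). It had 6 regions, of which 4 were called in every list, and stood at the 90.1 percentile of all genes for regions per length (18.5 per 100 kb). The region over the high-coordinate end of the gene, at 110862688 to 110863411, measured 605 and 703 bp in KO and 724 and 715 bp in WT. Both KO peaks were narrower than both WT peaks, KO replicate 2 only slightly. Inside the gene, the region at 110859904 to 110860582 measured 674 and 499 bp in KO against 536 and 583 bp in WT, and the region at 110853990 to 110854416 measured 267 and 420 bp in KO against 340 and 282 bp in WT. The libraries of each genotype differed more from each other at these sites than the genotypes did. The widest region of the interval, at 110843747 to 110844592 (817 and 742 bp in KO, 718 and 790 bp in WT), lay over the start of the neighbouring gene Rnf141. A peak of 270 bp inside Lyve1 was listed in KO replicate 2 alone, and one of 201 bp at the outer edge of the interval in WT replicate 2 alone.

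Pdpn encodes podoplanin, a mucin-type glycoprotein that activates the platelet receptor CLEC-2 and is also a known marker of alveolar type I epithelium (gene identifier 14726, chromosome 4, 143267409 to 143299564). No list held a peak anywhere in the gene. The one region of its interval was a 201 bp peak in WT replicate 2, 8578 bp beyond the gene's end, and the nearest region called in all 4 lists lay 54261 bp away. By regions per length the gene stood at the 23.3 percentile of all genes, and 4214 of the 21887 genes had no region at all.

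Ccl21a encodes the CCR7 ligand CCL21 (gene identifier 18829, chromosome 4, 42772860 to 42773991). It too had no peak over the gene, and it has near-identical copies elsewhere in the genome; the sources used here do not say how reads that match several copies were treated. Its one region, at 42766545 to 42767506 and 5354 bp beyond the gene's end, was called in every list but with different shapes. KO replicate 1 had 1 peak of 843 bp and KO replicate 2 had 1 of 332 bp, against pairs of peaks of 398 and 267 bp in WT replicate 1 and of 422 and 273 bp in WT replicate 2. The KO libraries thus lay on either side of the WT libraries in total width. The single wide peak of KO replicate 1 reached from the outer edge of the WT pair into its inner peak, while KO replicate 2 listed only the outer one. This region also lies in the span of the non-coding RNA gene 4930578G10Rik.

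**Figure D2:**
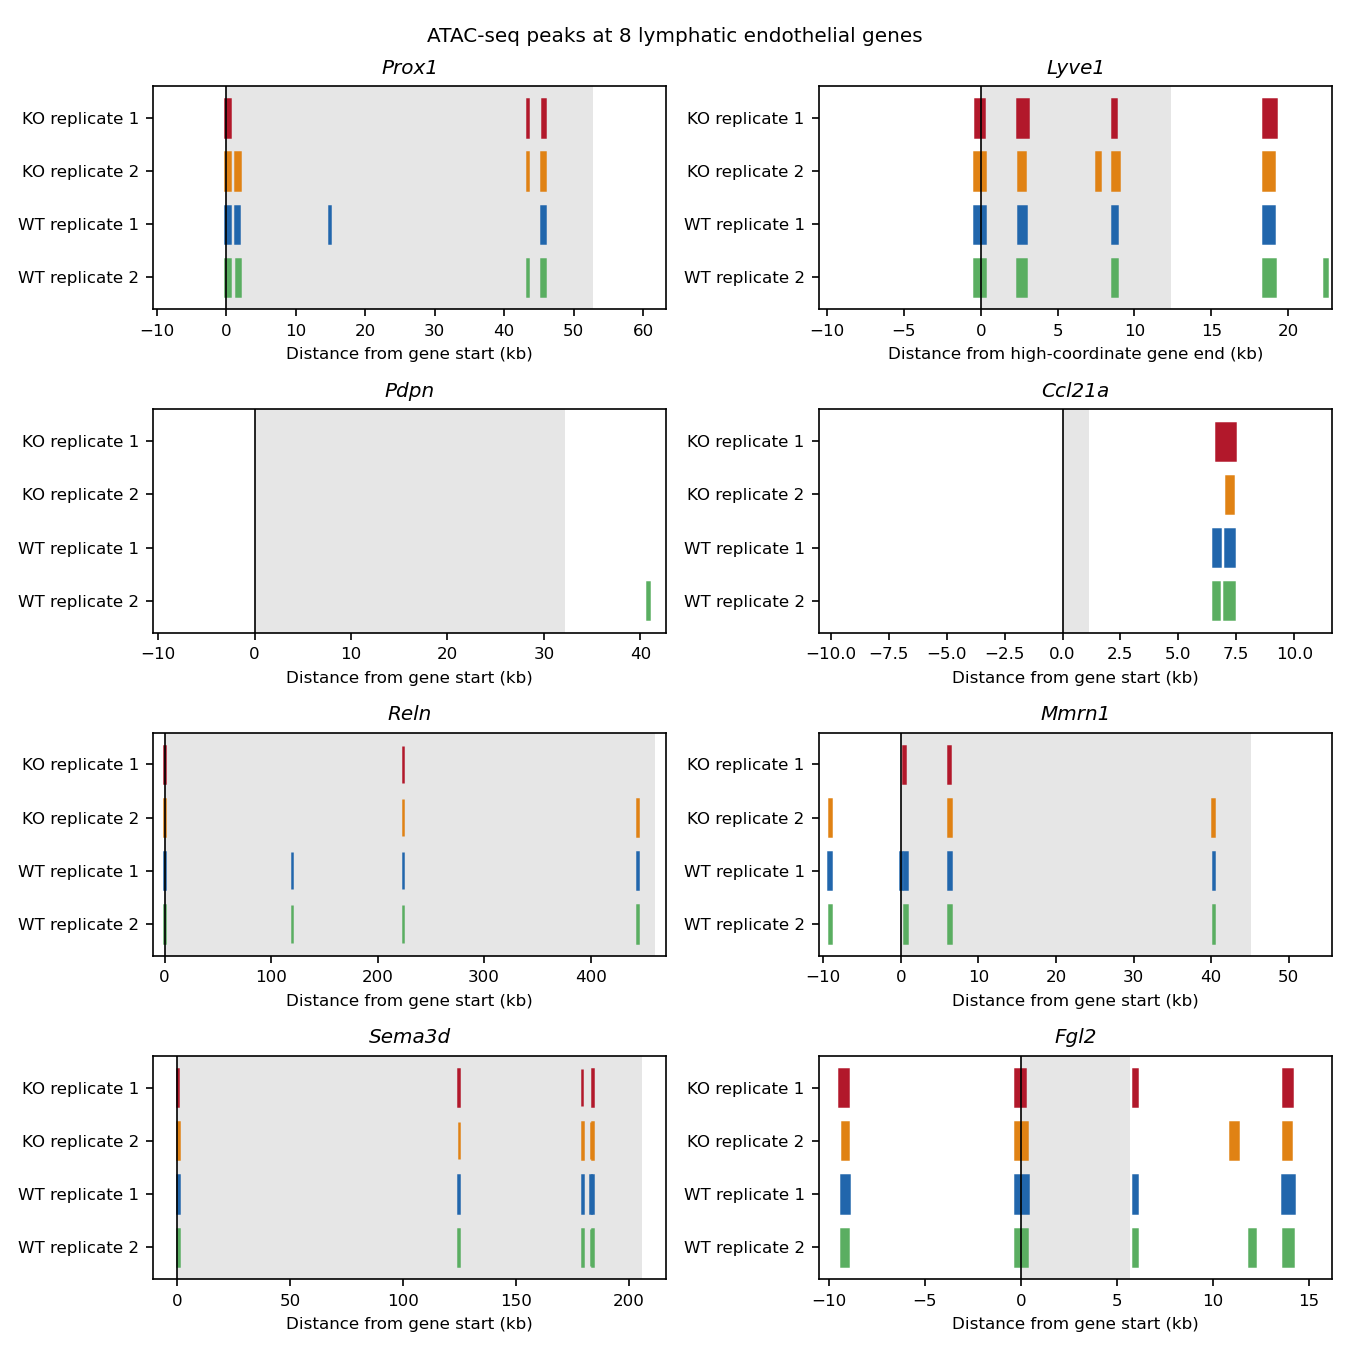
Peaks of each library (rows) along each gene's interval, by distance from the gene's start in kb (horizontal axis, different for each panel; the high-coordinate end for Lyve1); grey marks the gene, and very narrow peaks are drawn at the width of the line. The start of Prox1 and the high-coordinate end of Lyve1 have a peak in all 4 libraries, Pdpn has 1 peak in WT replicate 2, and the peak 119.9 kb into Reln appears in both WT rows and in neither KO row.

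Reln encodes reelin, a large secreted glycoprotein (gene identifier 19699, chromosome 5, 21884454 to 22344705). Its 460252 bp held only 4 regions, 0.833 per 100 kb of interval, the 20.2 percentile of all genes. One of them, at 22224577 to 22224828 and 119.9 kb inside the gene, was listed in neither KO library and in both WT libraries, with narrow WT peaks of 208 and 252 bp. It was the single region of the 33 called in WT alone, meaning in both WT libraries but in no KO library, a pattern held by 3.04% of all merged regions. With only the widest peaks of each list, at equal list lengths, 0 had it. In the other direction, 0 of the 33 were called in KO alone, against 1.12% of all regions. At the CpG-rich start of Reln (22344386 to 22345199), peaks measured 302 and 643 bp in KO and 754 and 706 bp in WT. Both KO peaks were narrower, and KO replicate 1 was far below the other 3. Into the gene, the KO peaks ended 0.115 and 0.148 kb past the start and the WT peaks 0.319 and 0.24 kb past it. A region 223.8 kb inside the gene, at 22120373 to 22120864, measured 355 and 287 bp in KO and 492 and 427 bp in WT, again with no overlap. The last, at 21900631 to 21901005, was missing from KO replicate 1 and measured 333 bp in KO replicate 2, against 288 and 343 bp in WT.

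Mmrn1 encodes multimerin 1, a secreted protein of endothelium and platelets (gene identifier 70945, chromosome 6, 60944317 to 60989378). Of its 5 regions 1 was called in every list, at 60950431 to 60950782, with 244 and 331 bp in KO and 322 and 326 bp in WT. Next to the start the lists disagreed. A region beginning 254 bp past it, at 60944571 to 60945110, measured 334 bp in KO replicate 1, was not listed in KO replicate 2, and measured 400 and 379 bp in WT. The start itself lay under a 308 bp peak in WT replicate 1 alone. KO replicate 2 was therefore the one library with no peak within 1000 bp of the Mmrn1 start. The regions at 60934971 to 60935287 and 60984456 to 60984709 had the opposite absence: KO replicate 1 had no peak at either, and KO replicate 2 had 243 and 241 bp. In WT they measured 317 and 209 bp at the first and 201 and 216 bp at the second.

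Sema3d encodes a secreted class 3 semaphorin, a guidance cue for axons and vessels (gene identifier 108151, chromosome 5, 12383161 to 12588953). Its start region at 12383113 to 12384057 had the widest gap between the genotypes of the 17 regions called in every list: 579 and 632 bp in KO, against 849 and 945 bp in WT. The difference lay on the gene side, where KO peaks ended 0.631 and 0.641 kb past the start and WT peaks 0.858 and 0.896 kb past it. Among all regions of 4 lists that hold a RefSeq start, of which there were 9959, these widths stood at the 14.9 and 25.0 percentiles in KO and the 50.1 and 60.6 percentiles in WT. Deeper in the gene, the regions at 12507587, 12562229 and 12566538 were called in all lists with overlapping widths (201 to 482 bp in KO and 266 to 492 bp in WT). The region at 12566050 to 12566353 was missing from KO replicate 1 and measured 205 bp in KO replicate 2, against 262 and 291 bp in WT.

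Fgl2 encodes fibrinogen-like protein 2, a procoagulant and immune-regulating protein made by endothelium and by leukocytes (gene identifier 14190, chromosome 5, 21372673 to 21378386). The gene lies inside the span of Ccdc146, as do all 6 regions of its interval. At its start (21372374 to 21373066) peaks measured 535 and 606 bp in KO and 682 and 598 bp in WT, and the genotypes overlapped. A region 7895 bp beyond the gene, at 21386281 to 21386893, measured 474 and 387 bp in KO and 613 and 558 bp in WT, with no overlap. The region 8949 bp before the gene measured 458 and 343 bp in KO and 400 and 368 bp in WT. The other 3 regions were narrow and were listed in 1 or 3 libraries, among them a 380 bp peak in KO replicate 2 alone and a 305 bp peak in WT replicate 2 alone.

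**Figure D3:**
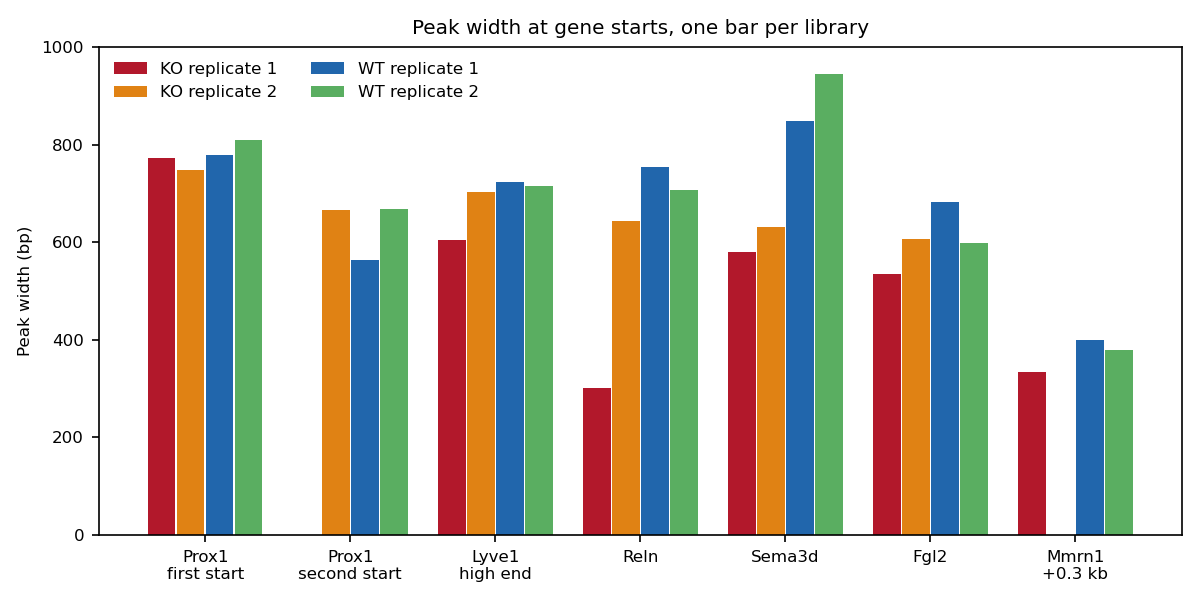
Peak width in bp (vertical axis) at gene starts (for Mmrn1, at the region beginning 254 bp past the start), 1 bar per library, KO left of WT; a missing bar means that the library listed no peak. Both KO bars are below both WT bars at Sema3d (579 and 632 bp against 849 and 945 bp), and 1 KO library has no peak at the downstream Prox1 start and at the region past the Mmrn1 start.

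Of the 33 regions, 17 (51.5%) were called in all 4 lists, against 66.7% of all merged regions, 8 were called in 3 lists, 1 in 2 lists and 7 in 1 list. Called regions numbered 20 (60.6%) and 25 (75.8%) for KO, against 27 (81.8%) and 29 (87.9%) for WT. Over all merged regions these shares were 74.3% and 85.2% in KO and 87.1% and 84.4% in WT, so KO replicate 1 was lowest in both. It alone missed 5 of the 33 (7.59% of all regions had this pattern). KO replicate 2 alone missed 2 (1.82% of all) and WT replicate 1 alone missed 1 (0.716% of all). WT replicate 2 alone missed 0 (0.931% of all). Of the 8 member regions called in 3 lists 7 lacked a KO list, which is close to the 85.1% over all such regions.

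Peaks at the 8 genes averaged 22.5 ± 3.54 per KO list and 29.0 ± 1.41 per WT list (SD, n = 2 each). The genotypes did not overlap, and the exact two-sided permutation test gave p = 0.33, the smallest that 2 against 2 allow. The KO mean differed from the WT mean by -22.4%, and over whole lists the difference was -6.58%. Without KO replicate 1 the members' difference was -13.8% and that of the lists 1.35%, and without KO replicate 2 they were -31.0% and -14.5%. The difference of -6.5 peaks was -2.5 when only the widest peaks of each list were kept, at equal list lengths. Marker genes of some other cell types had differences of like size. Macrophage and pan-leukocyte genes had 14 and 16 peaks in KO against 20 and 20 in WT (-25.0%). For lymphocyte genes the counts were 17 and 20 in KO libraries, compared with 23 and 22 in WT libraries (-17.8%). For alveolar type II and airway genes they were 16 and 19 in KO libraries, compared with 22 and 22 in WT libraries (-20.5%). For the other lists, the differences were -8.76% at pan-endothelial genes, -9.38% at lung capillary genes, -6.98% at alveolar type I genes, -3.03% at platelet genes, 1.47% at fibroblast and mural genes and -9.52% at mesothelial genes. The part of such cells in the members' difference was not tested.

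Base pairs under peaks were compared per gene with limma over the 17479 genes with a peak in at least 2 lists, after scaling each list to the same total. The base pairs given for each gene are before scaling, and the log2 differences are after it unless stated. For Mmrn1 the base pairs were 578 and 815 in KO and 1548 and 1130 in WT, a log2 difference of -0.69 (SE 0.19), with an adjusted p of 0.724 by limma. Reln had 657 and 1263 in KO and 1742 and 1728 in WT, a log2 difference of -0.70 (SE 0.27, limma adjusted p = 0.823). In both genes the KO libraries lay under the WT libraries, but neither difference passed the threshold of 0.05, and at Reln it was -0.33 without KO replicate 1 and -1.07 without KO replicate 2. Sema3d had 1591 and 1805 in KO and 2218 and 2295 in WT, a log2 difference of -0.28 (SE 0.08, limma adjusted p = 0.770). Fgl2 had 1668 and 1716 in KO and 1896 and 2055 in WT, a log2 difference of -0.11 (SE 0.08, limma adjusted p = 0.823), which was -0.17 without WT replicate 1, -0.04 without WT replicate 2 and -0.20 without scaling.

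The other tested genes were Lyve1, Prox1 and Ccl21a. Lyve1 had 2363 and 2634 bp in KO and 2318 and 2388 bp in WT, a log2 difference of 0.18 (SE 0.08, limma adjusted p = 0.823), or 0.08 without scaling. After scaling, the Lyve1 values were 2483 and 2701 bp in KO and 2222 and 2318 bp in WT. The unscaled values include the region over the Rnf141 start, with 817 and 742 bp in KO and 718 and 790 bp in WT. Prox1 had 1384 and 2188 bp in KO and 2151 and 2243 bp in WT, a log2 difference of -0.21 (SE 0.21, limma adjusted p = 0.829). At Prox1 only KO replicate 1 was low, and the difference was 0.08 without KO replicate 1 and -0.49 without KO replicate 2. Ccl21a had 843 and 332 bp in KO and 665 and 695 bp in WT, a log2 difference of -0.16 (SE 0.36, limma adjusted p = 0.907), which was -0.66 without KO replicate 1 and 0.34 without KO replicate 2. Pdpn, with 0 bp in 3 lists and 201 bp in WT replicate 2, was not tested. By limma, 0 of the 7 tested genes passed at an adjusted p under 0.05, as did 0 of 17479 (0%), of which 1037 had an unadjusted p under 0.05. At that unadjusted level 2 of the 7 genes, Mmrn1 and Sema3d (0.0231 and 0.0294 by limma), were lower in KO, against 3.63% of all genes, and 0 were higher, against 2.31%. Without scaling, both KO lists were under both WT lists at 4 of the 7 genes, against 35.0% of all genes, and over them at 0, against 5.65%. With scaling they were under at the same 4 genes, against 14.2%, and over at 1, Lyve1, against 26.0%. The median log2 difference was -0.21 for the 7 genes and 0.03 for all, and without scaling -0.30 and -0.06. Without KO replicate 2 the medians were -0.34 and 0.05, and without KO replicate 1 they were -0.21 and 0.01. Without WT replicate 1 they were -0.24 and 0.02, and without WT replicate 2 -0.17 and 0.04.

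**Figure D4:**
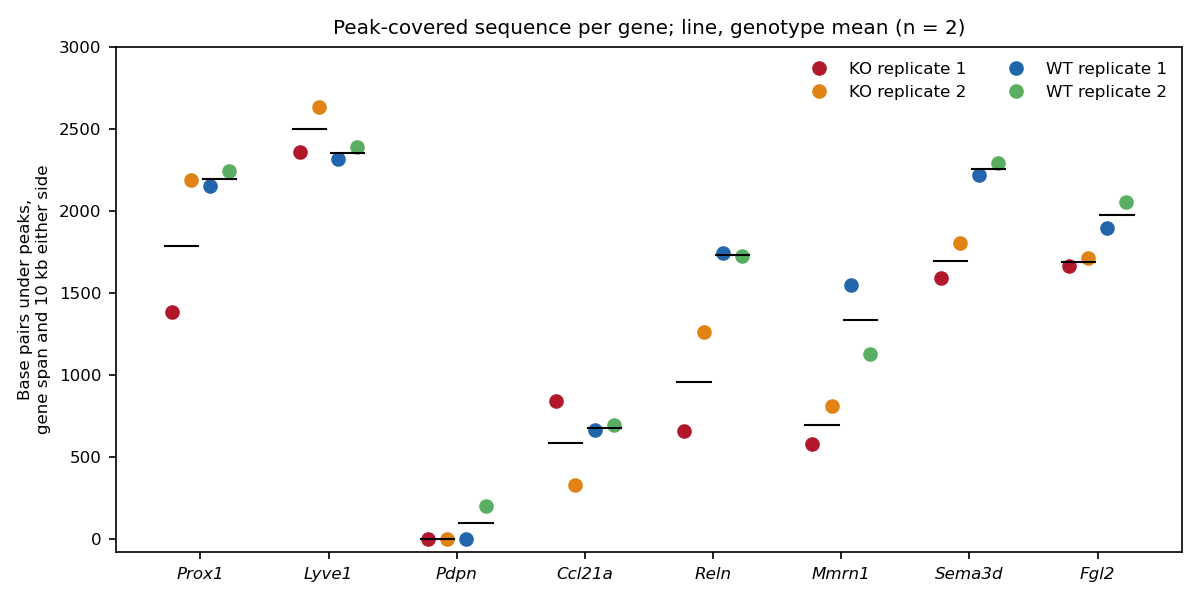
Base pairs under peaks in each gene's interval (vertical axis, unscaled) for each of the 4 libraries, KO left of WT; horizontal lines are genotype means (n = 2). Both KO points lie under both WT points at Reln, Mmrn1, Sema3d and Fgl2, and the KO points lie on both sides of the WT points at Ccl21a.

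For the 17 regions called in all 4 lists, log2 width was quantile-normalised and fitted with limma over all 75395 such regions. By limma, 0 of the 17 passed at an adjusted p under 0.05, as did 0 of all (0%), of which 4546 had an unadjusted p under 0.05. At that unadjusted level 2 of the 17 were narrower in KO, against 3.18% of all, and 0 were wider, against 2.85%. The Sema3d start had a log2 difference of -0.53 (SE 0.13, unadjusted p = 0.0124, limma adjusted p = 0.677), a direction shared by both KO libraries. The Fgl2 region 7895 bp beyond the gene had -0.41 (SE 0.13, unadjusted p = 0.0346, limma adjusted p = 0.780). At the Reln start the difference was -0.62 (SE 0.38), and it was -0.09 without KO replicate 1 and -1.15 without KO replicate 2. The Reln region 223.8 kb inside the gene had -0.46 (SE 0.17, limma adjusted p = 0.843), and -0.65 without KO replicate 1 and -0.26 without KO replicate 2.

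Without normalisation, both KO peaks were narrower than both WT peaks at 6 of the 17 regions and wider at 0, against 27.1% and 7.37% of all regions of 4 lists. After quantile normalisation they were narrower at 4 and wider at 1, against 14.8% and 20.3%. Of the 5 regions over a gene start or the high-coordinate end of Lyve1, 4 were narrower in both KO lists, against 24.2% of all regions with a RefSeq start. With normalisation 2 of the 5 were narrower, those of Reln and Sema3d, against 13.9%.

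The sorted population was checked against marker genes by asking for a peak within 1000 bp of a start (of either gene end where no start was listed). All 14 pan-endothelial genes and all 8 lung capillary genes had one in every list. Of the 8 lymphatic genes 6 and 5 did in KO and 6 and 6 in WT, the exceptions being Pdpn, Ccl21a and, in KO replicate 2, Mmrn1. Of all protein-coding genes, 63.0% and 65.2% did in KO, against 65.5% and 65.2% in WT. Of 41 markers of other cell types, 20 and 22 had such a peak in KO and 23 and 21 in WT. Among them, macrophage and pan-leukocyte genes had it at 0 and 0 of 8 in KO and at 1 and 0 in WT, and lymphocyte genes at 1 of 5 in every list. Over whole intervals, 3 of 21 macrophage and pan-leukocyte regions (14.3%), 3 of 24 lymphocyte regions (12.5%) and 2 of 23 alveolar type II and airway regions (8.70%) were called in WT alone, against 3.04% of all regions. In the macrophage and the lymphocyte list, 2 of the 3 lay at 1 gene. The share was 2.56% at pan-endothelial, 2.94% at lung capillary and 1.45% at alveolar type I genes. It was 0% at platelet, at fibroblast and mural, and at mesothelial genes. Platelet genes had a start peak at 4 of 5 in every list, and mesothelial genes at 1 of 3 in every list. Fibroblast and mural genes had one at 4 and 5 of 7 in KO and 5 and 4 in WT. Of the alveolar type I genes, which share Pdpn with lymphatic vessels, 5 of 6 had a start peak in every list. Of other epithelial genes, 5 and 6 of 7 had one in KO and 6 and 6 in WT. The 41 markers were not screened for expression in endothelium, and Cav1, among the alveolar type I genes, had a start peak in every list. The part of other cells in the lymphatic gene regions was not tested.

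A wider list of 51 genes of lymphatic development and function, other than the 8, held 585 regions, of which 67.2% were called in all 4 lists. Of these regions 9 (1.54%) were called in KO alone and 14 (2.39%) in WT alone, near the 1.12% and 3.04% of all merged regions. Those patterns were found at 6 genes (KO alone) and 11 genes (WT alone) of the 51, against 4.41% and 9.47% of all protein-coding genes. These shares per gene were not matched for region number. Over all protein-coding genes the median was 3 regions, and 4214 of 21887 had none, so the shares per region above are the closer comparison. A peak within 1000 bp of the start was present in every list at 44 genes of the 51. Of all protein-coding genes, 63.0% to 65.5% had one in a given list. The other 7 had one in no list: Nr2f2, Vegfd, Itga9, Clec1b, Ackr4, Ccl21b and Ccl21c. This absence refers to the start alone. Nr2f2 had 9 regions in its interval, 5 of them called in all 4 lists, and Itga9 had 47, with 31 in all 4. The position that the gene table gives for Ccl21c may not be its place on the assembled chromosome, so its absent peak may not refer to that gene.

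By role, the VEGF-C axis, which drives lymphatic sprouting, had 4 KO-only (4.17%, against 1.12% of all merged regions) and 0 WT-only regions in 96 (3.04% of all). These were 3 inside Nrp2, a VEGF-C co-receptor, the widest with peaks of 600 and 464 bp, and 1 outside Kdr, a VEGF receptor gene. Receptor and adhesion genes had 1 KO-only (0.324%) and 11 WT-only regions (3.56%) in 309, the WT-only share near that of all regions. The KO-only one lay inside Fat4, an atypical cadherin that takes part in lymphatic patterning (455 and 424 bp). The WT-only ones lay at Efnb2 (2), whose product is a ligand of EPHB4, at Calcrl (2), the adrenomedullin receptor gene, at Itga1 (2), and at Itga9, Ptpn14, Ephb4, Gja1 and Celsr1. Of these, the widest peaks were at Efnb2, 495 and 456 bp, 2829 bp outside the gene. Transcription factors had 1 KO-only region, outside Nr2f2, and 1 WT-only region, inside Tbx1, in 90 (1.11% each). Scavenger and chemokine genes had 3 KO-only regions, 2 at the scavenger receptor gene Stab2 and 1 of 542 and 601 bp outside Ackr3, which encodes a decoy receptor for CXCL12 and adrenomedullin, and 2 WT-only regions, inside Ackr4 and Timp3, in 90 (3.33% KO-only and 2.22% WT-only).

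The edge of the interval decided a few memberships. The 201 bp WT replicate 2 peak at Lyve1 had only 18 bp within 10 kb of the gene. Just outside, the 3 nearest regions were called in all 4 lists: one 853 bp beyond the Prox1 interval (283 and 411 bp in KO, 370 and 544 bp in WT), one 2462 bp beyond that of Mmrn1 (432 and 380 bp in KO, 442 and 413 bp in WT) and one 3222 bp beyond that of Fgl2 (842 and 925 bp in KO, 872 and 916 bp in WT).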

How the data were processed

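ATAC-seq was measured in 4 libraries, 2 KO and 2 WT, grouped by the genotype and replicate number in the labels. Per the submitters' processing notes, cutadapt, Bowtie2, Picard and mm10 were used; these notes give neither version nor order. The sources used here do not name the peak caller, its cutoff, read filters or any transposase shift. Per the file headers, each deposited list gives position, width and strand of peaks, with no score, fold or count, so depth and its precision are unknown. Peaks on assembled chromosomes were kept and merged at 1 bp of overlap. Gene spans and starts were those of RefSeq (GRCm38.p6).

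A region's width in a list was the summed width of its peaks there. Covered base pairs were clipped to the interval, scaled to equal list totals and compared on log2(bp + 200). Both measures were fitted with limma 3.58.1 (R 4.3.3), with Benjamini-Hochberg adjustment over all genes or regions and a threshold of 0.05, after tests on simulated data. Library totals used the exact permutation test of scipy 1.17.1 (Python 3.11.15). Named genes were the 8 members and every gene of the wider list with a region of one genotype alone; the wider-list genes with no start peak were named after their values were seen. The members and lists were chosen with earlier results of these data known. No genome sequence of the regions was used, so CpG content and motifs were read from RefSeq start windows alone.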

Additional observations from a re-analysis of the deposited data

How the results depend on the processing

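Of the 33 regions, 1 was called in WT alone. The number was also 1 with a 50% overlap and with a 500 bp gap for absence. It was 1 with the gene span alone, which holds 23 of the 33, and 1 with 50 kb either side. The 50 kb intervals held more peaks (44 and 52 in KO, 57 and 59 in WT), so these counts have different totals. The number called in WT alone was 0 when only the widest peaks of every list were kept, as many as KO replicate 1 holds. Leaving out each library in turn, which asks for 1 list fewer, gave 3 to 6 such regions, against 4.99% to 11.1% of all regions. The number called in KO alone was 0 under those 5 alternatives and 0 to 2 without each library, the 2 being at Lyve1 and Fgl2 without KO replicate 1, against 1.89% to 5.83% of all regions. The difference in peak number, -6.5, was -3.5 with the gene span alone, -10 with 50 kb, -2.5 with equal list lengths, and -9 to -4 without each library. The number of members that passed the limma tests was 0 of covered base pairs and 0 of widths under every alternative run, the replicate block included. The replicate numbers share nothing but the number in the labels, and same-numbered libraries had a correlation of deviations of -0.11 for covered base pairs and -0.04 for widths. The crossed pairing, chosen after seeing the data, also gave 0. With a pseudocount of 20 bp, 78 genes passed, against 0, none of them a member. Unknown depth limits every absence: an unlisted site may still be accessible.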
